A study of Homo sapiens with 34 samples.

Results

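The data were region lists of OGG1 CUT&RUN in non-treated U2OS cells that carried an siRNA against Orc6 (siOrc6) or a control siRNA (siGl3). They were chosen as the lists of that antibody without H2O2, 4 of the 34 samples of the series, with 2 libraries for siOrc6 and 2 for siGl3. U2OS is a human osteosarcoma line, and all libraries came from this line. Knockdown ran for 72 h, and the cells of both groups were collected 3 h after release from a double thymidine block. In CUT&RUN a nuclease tethered to an antibody cuts out the DNA around its target. Here 500000 cells were used per reaction after a fixation of 1 min in 0.1% formaldehyde. The labels do not say whether replicates were separate cultures, so p-values measure only the spread between these samples. No RNA or protein level of Orc6 was measured in these lists, so they do not check the knockdown, and occupancy at marker genes does not check the cell type. Depth is unknown because the lists hold no read counts.

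OGG1 is the DNA glycosylase that finds 8-oxoguanine, the main oxidised form of guanine, and starts base excision repair by cutting the damaged base from its sugar. AP endonuclease, DNA polymerase beta and a ligase then fill the gap. Guanine runs are the bases most easily oxidised, and OGG1 is also known to bind at G-rich promoters. Orc6 is a small subunit of the complex that recognises replication origins, which loads the MCM helicase onto DNA before S phase. It has further roles in cytokinesis and in mismatch repair during S phase.

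The promoters below are examples of start sites that the 4 lists share or divide, and do not stand for all genes of a pattern. Each is the RefSeq stretch of 300 bases in GRCh38.p14, from 250 bases before to 50 bases after the start, and capitals mark runs of at least 3 G or 3 C. They were picked after their values were seen, as promoters that were covered whole in each list of a pattern and in no other list. TDG (chr12:103965622-103965921, plus strand), a thymine DNA glycosylase, and POLE3 (chr9:113410700-113410999, minus strand), a histone-fold subunit of DNA polymerase epsilon, lay in both siOrc6 lists and in neither siGl3 list. ORC6 itself (chr16:46689409-46689708, plus strand) lay in neither siOrc6 list and in both siGl3 lists. RNF216 (chr7:5781614-5781913, minus strand), a ubiquitin ligase gene, lay in all 4 lists. CXCL8 (chr4:73740319-73740618, plus strand), the gene of the chemokine interleukin 8, lay in the list of siOrc6 replicate 2 alone.
TDG: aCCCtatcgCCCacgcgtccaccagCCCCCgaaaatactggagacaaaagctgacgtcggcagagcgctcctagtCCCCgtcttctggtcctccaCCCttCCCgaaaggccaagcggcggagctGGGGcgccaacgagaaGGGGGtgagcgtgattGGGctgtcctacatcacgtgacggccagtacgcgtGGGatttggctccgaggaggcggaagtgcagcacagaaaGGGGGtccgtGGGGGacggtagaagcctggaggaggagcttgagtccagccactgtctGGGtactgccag
POLE3: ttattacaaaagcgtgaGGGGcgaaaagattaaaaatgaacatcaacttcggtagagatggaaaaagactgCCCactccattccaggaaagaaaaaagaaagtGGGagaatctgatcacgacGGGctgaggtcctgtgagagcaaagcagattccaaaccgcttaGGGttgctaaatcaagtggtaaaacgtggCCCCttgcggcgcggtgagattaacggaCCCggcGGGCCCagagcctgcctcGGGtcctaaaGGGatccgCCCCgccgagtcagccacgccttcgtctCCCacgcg
ORC6: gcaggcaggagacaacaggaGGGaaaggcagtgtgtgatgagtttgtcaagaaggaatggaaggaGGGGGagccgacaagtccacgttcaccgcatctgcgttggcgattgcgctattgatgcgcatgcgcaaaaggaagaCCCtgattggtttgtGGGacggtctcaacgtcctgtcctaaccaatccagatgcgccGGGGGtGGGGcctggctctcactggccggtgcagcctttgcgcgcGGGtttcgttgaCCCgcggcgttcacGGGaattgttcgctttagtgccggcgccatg
RNF216: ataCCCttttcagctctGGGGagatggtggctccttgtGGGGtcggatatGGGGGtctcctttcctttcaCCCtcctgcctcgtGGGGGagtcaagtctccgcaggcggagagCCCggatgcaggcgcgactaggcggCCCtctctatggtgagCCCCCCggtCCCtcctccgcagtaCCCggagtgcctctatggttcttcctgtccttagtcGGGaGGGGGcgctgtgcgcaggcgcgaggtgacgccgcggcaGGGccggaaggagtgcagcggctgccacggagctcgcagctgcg
CXCL8: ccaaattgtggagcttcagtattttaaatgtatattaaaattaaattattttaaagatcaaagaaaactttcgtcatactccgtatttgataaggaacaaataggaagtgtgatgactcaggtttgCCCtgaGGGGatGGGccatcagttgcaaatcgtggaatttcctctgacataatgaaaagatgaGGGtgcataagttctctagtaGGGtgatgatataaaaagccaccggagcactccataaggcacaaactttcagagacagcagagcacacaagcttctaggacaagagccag
The promoters of TDG and POLE3 held 13 runs each at 63.3% and 53.7% G and C, that of ORC6 held 9 runs at 59.3%, and that of RNF216 held 14 runs at 67.0%. The CXCL8 promoter held 5 runs at 39.3% and was the poorest in CpG of these, with 4 against 21 to 24 in the other promoters shown. Promoters picked in the same way and not shown varied within a pattern. That of SEBOX, in both siGl3 lists alone, held 5 CpG and 20 runs. That of DAGLB, in all 4 lists, held 29 CpG and 4 runs, and that of CD96, in siOrc6 replicate 2 alone, 6 CpG and 4 runs.

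The library of siOrc6 replicate 2 stood apart from the other 3. Its bases overlapped those of siOrc6 replicate 1 with a Jaccard index, the shared bases over all bases of both lists, of 23.9%. Against siGl3 replicates 1 and 2 its index was 22.2% and 24.6%. The other 3 lists were close to each other, at 51.8% and 53.4% for siOrc6 replicate 1 against siGl3 replicates 1 and 2 and at 48.4% between the siGl3 replicates. Thus siOrc6 replicate 1 shared more bases with each control list than with its own replicate. Among all 19 other lists of the series, the nearest to siOrc6 replicate 1 were siGl3 replicates 2 and 1, and its own replicate ranked 9. The nearest to siOrc6 replicate 2 were lists of another antibody, against Orc6 in siGl3 cells, at 39.2% and 37.9% with H2O2 and at 37.3% in replicate 2 without it, and its own replicate ranked 11. The same Orc6 lists had indices between 17.7% and 23% with siOrc6 replicate 1. From the lists alone it cannot be told whether the antibody label of this library holds, so its values are those of the library labelled OGG1, siOrc6 replicate 2. Which property of it goes with the likeness was not tested. Each result below is therefore given for each siOrc6 library against both siGl3 libraries.

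**Figure D1:**
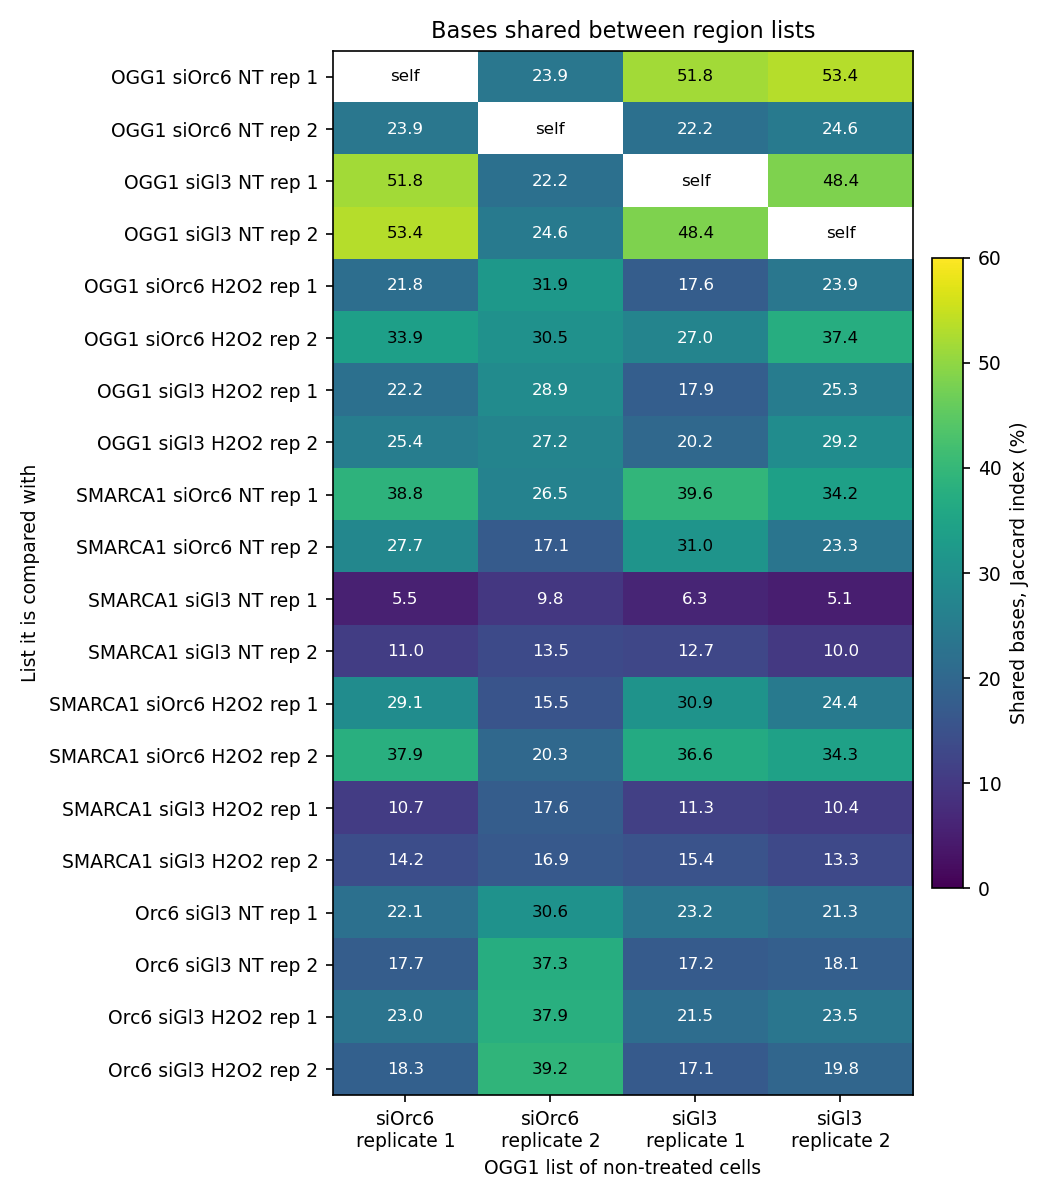
Jaccard index (percent) of bases between each OGG1 list of non-treated cells (columns, siOrc6 left of siGl3) and the other lists of the series (rows, NT for non-treated). siOrc6 replicate 1 reaches 51.8% and 53.4% with the siGl3 lists, while siOrc6 replicate 2 stays between 22.2% and 24.6% with all 3 others and reaches 39.2% with an Orc6 list.

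The number of OGG1 regions did not differ between siRNAs beyond the spread of replicates. There were 18759 and 33435 regions in siOrc6 cells, against 17813 and 21204 in siGl3 cells. The siOrc6 libraries lay further apart from each other than the group means did, and replicate 2 alone was high. The means were 26097 ± 10378 and 19508.5 ± 2398 regions (SD, n = 2 each), a ratio of geometric means of 1.29. The two-sided exact permutation test gave p = 0.667 for the log2 difference of 0.37. With 2 against 2 libraries this exact test cannot go below p = 0.333, and after Benjamini-Hochberg adjustment over the 5 library measures tested every adjusted p was 1. Without siOrc6 replicate 2 the log2 difference was -0.05.

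Covered bases came to 212.5 and 287.7 Mb in siOrc6 cells, against 165.7 and 244.3 Mb in siGl3 cells. In each replicate number the siOrc6 list covered more, by 1.28 times in replicate 1 and 1.18 times in replicate 2, while the groups overlapped (exact permutation p = 0.667). The excess in replicate 1 came with wider regions and that in replicate 2 with more of them. The median region was 7376 and 6138 bp wide in siOrc6 cells, against 6591 and 7494 bp in siGl3 cells (exact permutation p = 0.667). Regions of 20 kb or more made up 11.8% and 5.60% of the siOrc6 lists, against 7.39% and 12.1% of the siGl3 lists, so wide regions were rare in siOrc6 replicate 2 and siGl3 replicate 1.

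**Figure D2:**
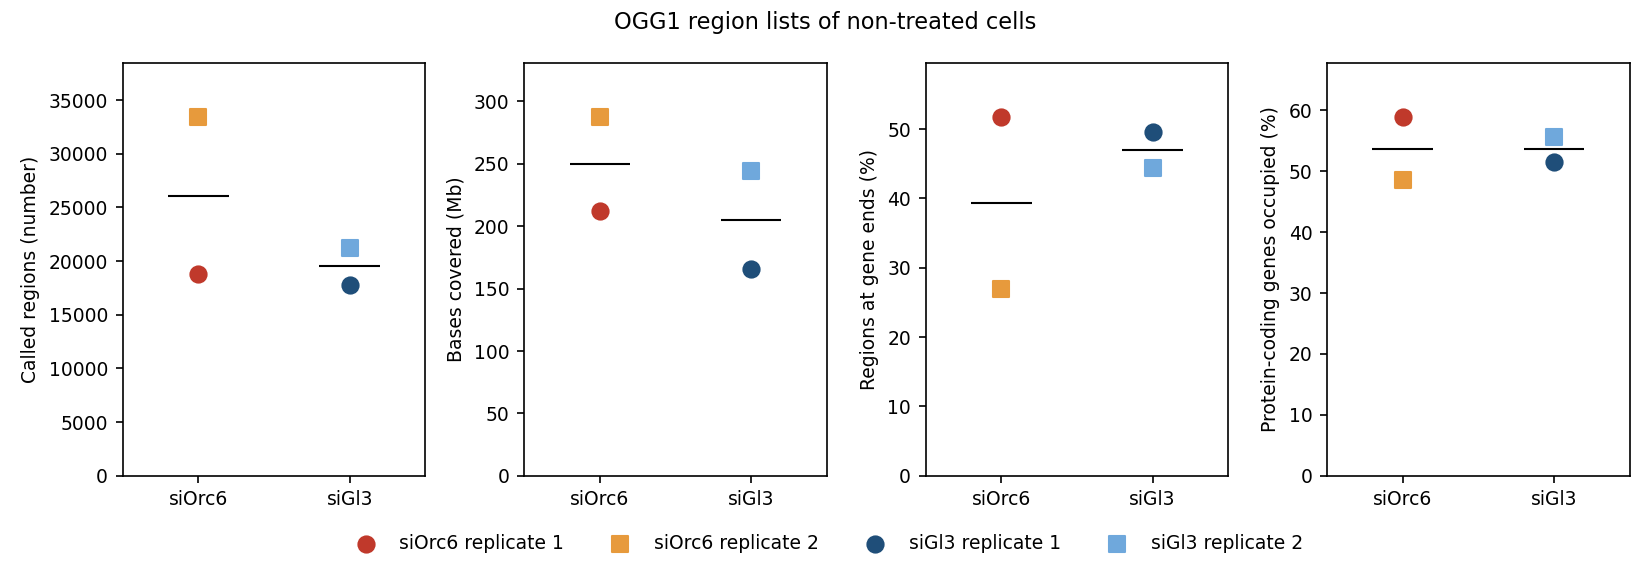
Number of called regions, bases covered (Mb), share of regions at gene ends (%) and share of protein-coding genes occupied (%) in siOrc6 (left) and siGl3 (right) cells, with circles for replicate 1, squares for replicate 2 and bars for group means. siOrc6 replicate 2 is highest in regions (33435) and lowest in gene ends (27%), and the groups overlap in all 4 panels.

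Gene starts held OGG1 regions in all 4 libraries. A gene was called occupied where a region overlapped the window of 1 kb on each side of either end of the gene. Of 19970 protein-coding genes, 58.9% and 48.5% were occupied in siOrc6 cells, against 51.6% and 55.6% in siGl3 cells. The siGl3 values lay between the siOrc6 values, the means differed by 0.14 points, and the exact permutation test gave p = 1. Of the regions, 51.8% and 27% touched such a window in siOrc6 cells, against 49.5% and 44.4% in siGl3 cells (exact permutation p = 1). That share was low in siOrc6 replicate 2 alone, and without that library the difference was 4.83 points in place of -7.56 points.

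Region summits showed the same split. Summits within 1 kb of a RefSeq start made up 31.3% and 11.9% of the siOrc6 lists, against 29.3% and 23.5% of the siGl3 lists. Summits more than 100 kb from any start made up 18.9% and 30.1% of the siOrc6 lists, against 18.7% and 21.2% of the siGl3 lists. Thus the list of siOrc6 replicate 2 was richest in regions with summits far from RefSeq starts, and siOrc6 replicate 1 did not stand out. Distance from a start is not distance from a gene, since a summit far from any start can lie inside a long gene. At the start base itself a region was present in 54.6% and 41.4% of 15811 genes in siOrc6 cells, against 46.9% and 49.8% in siGl3 cells. Far ends were less often occupied than starts in each library. Among 13373 genes of at least 5 kb, starts were occupied in 58.1% and 48.1% in siOrc6 cells, against 50.0% and 53.2% in siGl3 cells, and far ends in 24.9% and 18.7% in siOrc6 cells, against 19.8% and 27% in siGl3 cells.

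**Figure D3:**
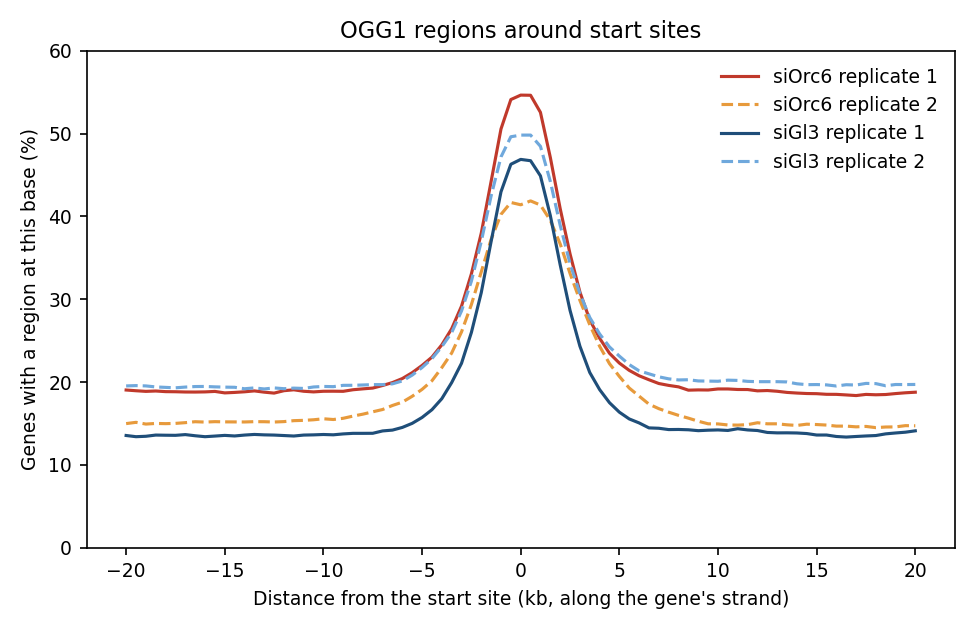
Share of 15811 protein-coding genes with an OGG1 region at each base (%) by distance from the start site (kb, along the strand), in siOrc6 and siGl3 replicates 1 (solid) and 2 (dashed). At the start the lines lie between 54.6% (siOrc6 replicate 1) and 41.4% (siOrc6 replicate 2), with both siGl3 lines in between, and siOrc6 replicate 2 has its highest value, 41.9%, 0.5 kb after the start.

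The strongest OGG1 regions were long domains that both groups shared. On the scale of percentile of total signal within a list, the genes of highest mean rank in all 4 lists were RNF216, DAGLB, KDELR2, FAM220A, RAC1, SMIM10L3, MAFK, PSMG3, TMEM184A and MICALL2, all of them on the short arm of chromosome 7. RAC1 codes for a GTPase of the actin cytoskeleton and MAFK for a small Maf partner of NRF2. RAC1 lay at percentiles 99.94 and 99.95 in siOrc6 cells, against 99.91 and 99.97 in siGl3 cells. The region of highest total signal in siOrc6 replicate 1 spanned 409 kb (chr7:1273807-1682944) over MICALL2, INTS1, MAFK, TMEM184A, PSMG3 and ELFN1. The list of siOrc6 replicate 2 covered 83.2% of it, and siGl3 lists 98.5% and 98.6%. Its widest region, of 488 kb (chr7:5160277-5647947), held ACTB, the beta-actin gene, and FSCN1, the gene of the actin bundler fascin. Of that domain siOrc6 replicate 2 covered 68.5%, and the siGl3 lists 98.3% and 98.9%. The top region of siOrc6 replicate 2 was another one, of 271 kb at ASAP1 on chromosome 8, and 35.2% of it lay in siOrc6 replicate 1, against 32.6% and 56.2% in the siGl3 lists.

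All 4 libraries shared 7117 occupied genes (35.6% of all), and 6217 genes (31.1%) were occupied in none. The 4 lists covered 472.4 Mb together, of which 61.8 Mb (13.1%) lay in all 4. Of the union, 158.4 Mb (33.5%) lay in siOrc6 replicate 2 alone, and 26.2 Mb (5.54%) in siOrc6 replicate 1 alone. Genes occupied in both siOrc6 and no siGl3 library numbered 304 (1.52%), against 99 (0.496%) in both siGl3 and no siOrc6 library. Both patterns were small beside the shared set. Fisher's exact test per gene, 2 against 2 libraries, cannot go below p = 0.333, so 0 genes passed an adjusted p of 0.05 and 0 had an unadjusted p under 0.05. By bases there were 11.5 Mb in both siOrc6 lists alone and 12.8 Mb in both siGl3 lists alone, and counted in bins of 10 kb 17 Mb and 12.5 Mb, so the order turned with the unit of counting.

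The balance of the 304 and 99 genes changed when the lists were cut. When each list was cut to its regions of highest total signal up to the same 165.7 Mb, 55 genes were occupied in both siOrc6 and no siGl3 library, 17 of them among the 304, against 242 in both siGl3 and no siOrc6 library, 48 of them among the 99. With the same number of regions in each list, 17813, the counts were 178 and 150. Both lengths are those of siGl3 replicate 1, so that list stayed whole with its weakest regions. Cutting to equal bases also set the siGl3 lists apart. Genes in siGl3 replicate 1 and not in siGl3 replicate 2 went from 797 to 4159, and the reverse from 1594 to 448. For siOrc6 replicate 1 by itself, 834 genes (4.18%) were occupied there and in no siGl3 list, against 220 (1.1%) in both siGl3 lists and not there, and these counts were 921 and 227 at equal region numbers and 339 and 316 at equal covered bases. For siOrc6 replicate 2 by itself the counts ran the other way, 1328 genes (6.65%) against 2266 (11.3%), with 755 against 3506 at equal region numbers and 573 against 3152 at equal covered bases. The siOrc6 replicates thus differed from siGl3 in opposite directions in the full lists.

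The genes of the siOrc6 pattern had regions of lower rank than genes in all 4 lists. Their median percentile of total signal, as a mean over the lists holding the gene, was 33.2. It was 45.9 for the genes of the siGl3 pattern and 72.0 for genes in all 4 lists. By library, regions met by the other siOrc6 list and neither siGl3 list had medians of 15.8 in siOrc6 replicate 1 and 47.7 in replicate 2. Those met by both siGl3 lists had 64.4 and 68.6. Regions met by the other siGl3 list and neither siOrc6 list had 21.3 and 41.0 in siGl3 replicates 1 and 2. In the siGl3 lists the nearest region lay a median of 31.3 kb from the ends of the 304 genes, and within 10 kb for 99 of them (32.6%). In the siOrc6 lists the nearest region lay a median of 3.77 kb from the ends of the 99 genes, and within 10 kb for 77 (77.8%). So most genes of the siGl3 pattern had a siOrc6 region within 10 kb, while most genes of the siOrc6 pattern had no siGl3 region that near. These were the shortest distances over both lists of a group, and siOrc6 replicate 2 was the longest list. For siOrc6 replicate 1 by itself the gap was smaller. The 834 genes had a siGl3 region at a median of 24.4 kb, within 10 kb for 35.0%. For the 220 genes its own nearest region lay at 6.80 kb, within 10 kb for 59.1%.

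OGG1 lists of H2O2-treated cells, which played no part in choosing these genes, held nearly all of them under either siRNA. Of the 304 genes, 304 and 302 were occupied in siOrc6 cells with H2O2, against 303 and 301 in siGl3 cells with H2O2. Of the 99 genes, 92 and 95 were occupied in siOrc6 cells with H2O2, against 96 and 98 in siGl3 cells with H2O2, and the groups did not overlap. Those lists were longer and occupied 79.6% and 78.2% of all protein-coding genes in siOrc6 cells, against 81.1% and 82.1% in siGl3 cells. Genes in all 4 non-treated lists were occupied at 99.7% or more in each of those lists, so nearly full occupancy leaves little room for a difference between siRNAs there.

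Among gene lists of repair and replication, the DNA glycosylases were occupied nearly throughout. Of 11 genes, 10 and 10 were occupied in siOrc6 cells, against 9 and 9 in siGl3 cells. OGG1 itself, on chromosome 3, was in all 4 lists at percentiles 70.4 and 70.8 in siOrc6 cells, against 46.7 and 75.0 in siGl3 cells. MUTYH, the glycosylase that removes adenine opposite 8-oxoguanine, was at 82.0 and 67.9 in siOrc6 cells, against 42.0 and 76.1 in siGl3 cells. MPG, NTHL1, NEIL1, NEIL2, SMUG1, UNG and MBD4 were also in all 4, so siRNA did not divide them. NTHL1, which removes oxidised pyrimidines, ranked high except in siOrc6 replicate 2, at 99.8 and 43.1 in siOrc6 cells, against 99.3 and 97.5 in siGl3 cells. NEIL3 was in no list.

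TDG was the glycosylase that divided the groups in the full lists, and at equal covered bases it was in no list. Its region was at percentiles 8.12 and 49.9 in siOrc6 cells, 3089 and 4731 bp wide, while the nearest siGl3 regions lay 73.6 and 74.4 kb from the gene. With H2O2 it was occupied in all 4 OGG1 lists.

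After the glycosylase step, 11 and 9 of 14 base excision repair genes were occupied in siOrc6 cells, against 10 and 9 in siGl3 cells. APEX1, the AP endonuclease, was in all 4 lists, at percentiles 16.6 and 95.1 in siOrc6 cells and 18.8 and 81.5 in siGl3 cells, with replicate 2 high under both siRNAs. PARP1, FEN1, PCNA and APTX were in all 4 as well. POLB, the gap-filling polymerase, was in both siOrc6 lists alone, at percentiles 7.67 and 19.3, with the nearest siGl3 regions 18.0 and 11.4 kb away, and at equal covered bases it was in no list. LIG1 and XRCC1, a ligase and the scaffold of the repair complex, were missing from siOrc6 replicate 2 alone. Of 9 genes that handle the oxidised nucleotide pool or recognise oxidised bases, 8 and 7 were occupied in siOrc6 cells, against 5 and 7 in siGl3 cells. NUDT1, which clears oxidised dGTP, was in all 4 lists, at 99.9 and 75.7 in siOrc6 cells, against 99.9 and 99.4 in siGl3 cells.

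The genes of origin recognition and licensing were occupied in 11 and 11 of 16 in siOrc6 cells, against 10 and 11 in siGl3 cells. ORC2, MCM2, MCM4, MCM5, MCM7, MCM10, CDC6 and CDT1 were in all 4 lists. MCM5, a helicase subunit, was at percentiles 99.9 and 95.5 in siOrc6 cells, against 99.8 and 99.9 in siGl3 cells. ORC1 was occupied in siOrc6 replicate 2 alone, and ORC3, ORC4 and ORC5 in no list. MCM3, MCM6 and GMNN, the geminin gene, had other patterns that did not divide by siRNA.

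ORC6, the gene whose transcript the siRNA targets, was the member of the licensing list that both siGl3 libraries held and no siOrc6 library held. The siGl3 regions covered its start and were 4262 and 2988 bp wide, at percentiles 58.4 and 63.0. In siOrc6 cells the nearest OGG1 regions lay 131 and 127 kb from the gene (chr16:46689659-46698394). This was 1 of 99 genes with the pattern, and no test at this sample size can pass for a single gene. With H2O2 the ends of ORC6 were occupied in all 4 OGG1 lists, under either siRNA. SMARCA1 lists of non-treated cells held it in replicate 2 under each siRNA, and none of the 4 Orc6 lists held it.

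In further lists the siRNAs differed by a few genes. Replication fork genes were occupied in 25 and 21 of 30 in siOrc6 cells, against 22 and 20 in siGl3 cells, and POLD3 and POLE3, subunits of the replicative polymerases delta and epsilon, were in both siOrc6 lists alone. POLD3 was near the bottom of the first list, at percentiles 0.63 and 26.1, and at equal covered bases neither gene was in any list. Mismatch repair genes were occupied in 7 and 8 of 8 in siOrc6 cells, against 7 and 6 in siGl3 cells, with EXO1, an exonuclease, in siOrc6 replicate 2 alone. Double-strand break genes were occupied in 15 and 16 of 23 in siOrc6 cells, against 13 and 13 in siGl3 cells, with NBN, a subunit of the MRN complex, in both siOrc6 lists alone at percentiles 14.0 and 59.95, and in no list at equal covered bases. ISWI remodeller genes were occupied in 10 and 10 of 14 in siOrc6 cells, against 7 and 8 in siGl3 cells. SMARCA1, the X-linked ISWI ATPase gene, was in no list, and SMARCA5 was in siOrc6 replicate 1 alone at percentile 2.34.

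In each of the fork, break repair and ISWI lists the siOrc6 counts were at or above the siGl3 counts in both pairs of replicates, and the same held for 58 and 55 of 76 ribosomal protein genes in siOrc6 cells, against 47 and 54 in siGl3 cells. It held as well for the glycosylase, base excision repair, oxidised base, licensing and mismatch repair lists above. The neuron, germline, osteoblast and histone lists below also had it, so it was not particular to repair or replication genes. The counts did not overlap between groups in the glycosylase, break repair, ISWI, ribosomal protein and neuron lists. Over all protein-coding genes the groups did overlap, at 58.9% and 48.5% in siOrc6 cells, against 51.6% and 55.6% in siGl3 cells. There the difference ran in opposite directions, 7.34 points in replicate 1 and -7.06 points in replicate 2. No test was made of a list. NRF2 targets had other counts, with 19 and 17 of 23 in siOrc6 cells, against 19 and 19 in siGl3 cells, as did p53 targets, with 15 and 12 of 17 in siOrc6 cells, against 14 and 14 in siGl3 cells. Immediate early genes, which answer growth and stress signals first, were occupied in 13 and 13 of 17 in siOrc6 cells, against 13 and 14 in siGl3 cells. Peroxide and superoxide enzymes were occupied in 10 and 10 of 15 in siOrc6 cells, against 8 and 12 in siGl3 cells.

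Lists of other cell types gave the level of occupancy at genes an osteosarcoma line should not need. Hepatocyte genes were occupied in 3 and 1 of 13 in siOrc6 cells, against 4 and 3 in siGl3 cells, and ALB, the albumin gene, in no list. Blood cell genes were occupied in 4 and 4 of 12 in siOrc6 cells, against 4 and 5 in siGl3 cells, with HBB, CD3E and PTPRC in none. Neuron genes were higher, at 8 and 8 of 11 in siOrc6 cells, against 6 and 6 in siGl3 cells, and MAP2 was in both siOrc6 lists alone. It was the 1 neuron gene with that pattern, while 1 was in siOrc6 replicate 1 alone and 2 in siOrc6 replicate 2 alone. The neuron shares were 72.7% and 72.7%, against 54.5% and 54.5%. Over all protein-coding genes they were 58.9% and 48.5% in siOrc6 cells, against 51.6% and 55.6% in siGl3 cells. Germline genes were occupied in 3 and 4 of 11 in siOrc6 cells, against 3 and 4 in siGl3 cells. Those counts were the same under both siRNAs. Osteoblast and mesenchymal genes were occupied in 10 and 11 of 20 in siOrc6 cells, against 9 and 11 in siGl3 cells, so occupancy at gene ends did not single out the cell type.

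**Figure D4:**
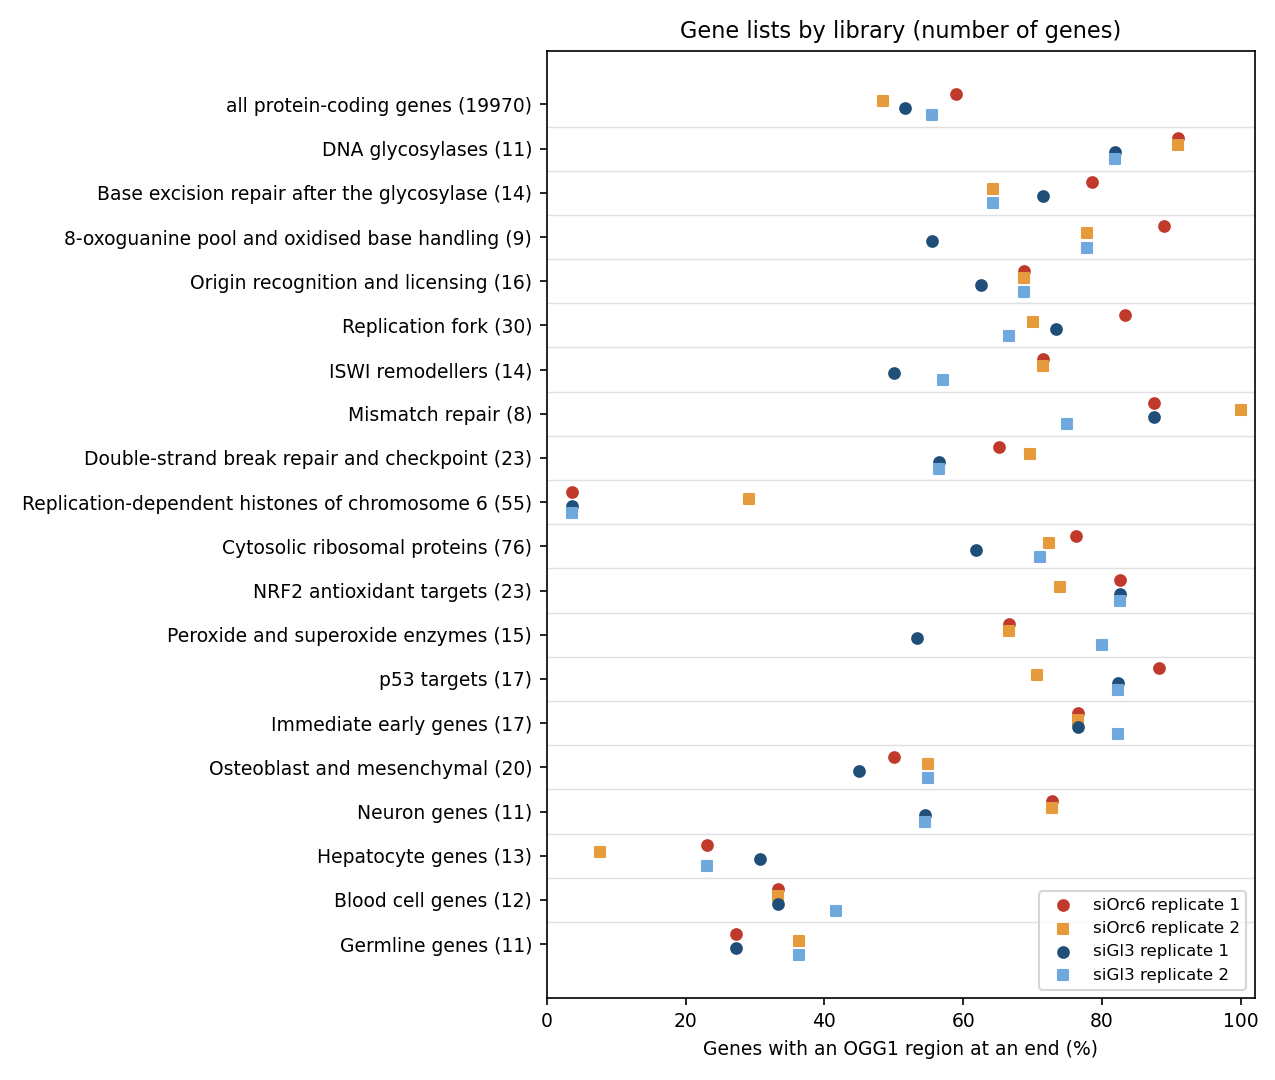
Share of genes with an OGG1 region at an end (%) for all protein-coding genes and each gene list, with list sizes in brackets and one mark per library (siOrc6 above siGl3 in each row). The histone genes of chromosome 6 are at 16 of 55 in siOrc6 replicate 2 and at 2 of 55 in each other library. Some other lists spread as widely, such as oxidised base handling (9 genes), from 55.6% in siGl3 replicate 1 to 88.9% in siOrc6 replicate 1.

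The replication-dependent histone genes of chromosome 6 set siOrc6 replicate 2 apart most plainly. They code for the core and linker histones made in S phase. OGG1 regions were at 2 and 16 of 55 in siOrc6 cells, against 2 and 2 in siGl3 cells. The 16 made up 29.1%, below the 48.5% of all protein-coding genes occupied in siOrc6 replicate 2. In each of the other libraries the share was 3.64%, against 51.6% to 58.9% of all protein-coding genes. Over the 2.17 Mb from the first to the last of these genes, regions covered 70.5 and 268.5 kb in siOrc6 cells, against 40.4 and 50.2 kb in siGl3 cells. This was 3.25% and 12.4% of the stretch in siOrc6 cells, against 1.86% and 2.32% in siGl3 cells. Of the genome the lists covered 7.02% and 9.50% in siOrc6 cells, against 5.47% and 8.06% in siGl3 cells. H2BC11, H2AC11, H2BC12 and H4C9 shared a region at percentile 90.05 in siOrc6 replicate 2, and the first 2 of them were also in siGl3 replicate 2, at 28.6. H4C12 was in both siOrc6 lists, at percentiles 37.5 and 70.1, and in neither siGl3 list, though a siGl3 replicate 1 region ended 1.32 kb away.

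The most strongly covered genes of the siOrc6 pattern were outside these lists. SRP9, a subunit of the signal recognition particle, was at percentiles 92.6 and 95.3 in siOrc6 cells in regions of 28.5 and 19.6 kb, and the nearest siGl3 regions lay 8.12 and 7.05 kb away. Over the 10 genes of highest rank that distance was between 1.04 and 12.6 kb. ICE2, a subunit of the little elongation complex of small nuclear RNA genes, was at 97.2 and 87.5, and CLP1, an RNA kinase of mRNA end processing, at 92.9 and 87.2. MDM4, an inhibitor of p53, was at 68.9 and 82.7, with siGl3 regions 4.76 and 5.16 kb away. The other 6 of highest rank were ADRA1B, LTF, C2orf78, GPR32, LOC124905413 and PRSS16. ADRA1B, an adrenergic receptor gene, had its RefSeq promoter covered in all 4 lists, so its pattern held at the gene's annotated ends and not at that start.

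The genes of highest rank in the siGl3 pattern had their nearest siOrc6 regions between 1.04 and 31.9 kb away. POLR2J, a subunit of RNA polymerase II, was at percentiles 97.1 and 96.5 in siGl3 regions of 45.3 and 49.0 kb, and siOrc6 regions ended 2.02 and 3.70 kb from the gene. GPR84 was at 95.3 and 92.5 in siGl3 cells, with siOrc6 regions 2.09 and 1.04 kb away. TMEM275, PRODH2, FAM151A, SEBOX, MFSD2B, BUB1B-PAK6, ITPRIPL1 and PRAC1 made up the other 8, with siGl3 percentiles between 75.2 and 97.8. ACR and APOA2, of the germline and hepatocyte lists, had the same pattern, and their nearest siOrc6 regions were between 1.04 and 7.66 kb away.

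At RefSeq starts taken alone, 209 of 244 genes of the siOrc6 pattern (85.7%) kept it, against 40 of 81 of the siGl3 pattern (49.4%). Counted from the starts themselves, 274 genes were in both siOrc6 and no siGl3 library, against 92 in both siGl3 and no siOrc6 library. Other patterns were kept at the start in 87.4% of genes for all 4 lists and in 82.4% and 76.7% for siOrc6 replicates 1 and 2 alone. The siOrc6 pattern was thus near these shares. The siGl3 pattern was below them, with 25 of its 81 promoters (30.9%) in no list at the start.

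Promoters of the patterns differed in base composition. Among 15811 protein-coding genes with a RefSeq promoter, the median content of G and C was 62.7%. It was 63.7% for the siOrc6 pattern, against 59.3% for the siGl3 pattern, with medians of 24 and 10 CpG. Genes in all 4 lists had 66.7% and 27 CpG, and genes in none had 55.3% and 10 CpG. The box GGGCGG, on either strand, was in 68.0% of promoters of the siOrc6 pattern, against 43.2% of the siGl3 pattern and 58.5% of all promoters. For siOrc6 replicate 1 by itself GGGCGG was in 68.4%, against 45.2%, and for replicate 2 in 46.6%, against 68.4%. TATAAA, on either strand, was in 5.74% of the siOrc6 pattern, against 8.64% of the siGl3 pattern and 9.64% of all promoters. By library it was in 5.66% against 6.21% for replicate 1 and 13.7% against 6.23% for replicate 2. A match of letters is not a bound site.

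The 1024 genes (5.13%) occupied in siOrc6 replicate 2 alone had promoters of another kind. Their median content of G and C was 54.7% with 16 CpG, against 65.0% with 25 CpG for the 530 genes (2.65%) of siOrc6 replicate 1 alone. TATAAA was in 16% of these promoters and TGANTCA, the letters of an AP-1 site, in 8.25%, against 5.62% and 4.68% for siOrc6 replicate 1 alone and 5.76% with TGANTCA over all promoters. These values were near those of genes in no list, 16.8% and 7.37%. The genes of highest rank were CLIP4, CREB5, RTN4, EVA1A, CXCL8, CD96, CHIC2, ITGB6, PKD1L1 and QPCT. CXCL8 was at percentile 99.2 in siOrc6 replicate 2 and had no region at its ends in the other 3 lists. CLIP4, CREB5, RTN4 and CHIC2 had their RefSeq promoter covered in all 4 lists, so their pattern lay at the far end or at another start. Conversely, 2167 genes (10.9%) were occupied in all libraries but siOrc6 replicate 2, and their promoters had a median of 68.0% G and C.

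The regions of siOrc6 replicate 2 that no other list held numbered 15917 of 33435 (47.6%), and 9.44% of them were at gene ends. In siOrc6 replicate 1 such regions numbered 1140 of 18759 (6.08%), and 43.7% were at gene ends. The bases of siOrc6 replicate 2 alone were covered by the OGG1 lists of H2O2-treated cells to 81.0% and 47.4% for siOrc6, against 78.8% and 64.5% for siGl3, and by the 4 Orc6 lists of siGl3 cells to between 23.2% and 63.2%. The bases of siOrc6 replicate 1 alone were covered by the OGG1 lists with H2O2 to between 61.2% and 82.7%, and by the Orc6 lists to between 6.45% and 19.4%. The bases of siGl3 replicates 1 and 2 alone were covered by the OGG1 lists with H2O2 to 60.4% to 83.6% and 56.5% to 86.6%. The Orc6 lists covered 9.12% to 25.1% and 5.59% to 19.7% of them. So the values of siOrc6 replicate 1 were not particular to siOrc6. The Orc6 lists themselves span between 4.71% and 13.2% of the genome, and the OGG1 lists with H2O2 between 18.4% and 27.2%.

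The chromosomes richest in genes held a smaller share of the regions of siOrc6 replicate 2, which was the longest list. Chromosome 19, with 24.8 protein-coding genes per Mb, held 5.33% and 1.88% of regions in siOrc6 cells, against 4.81% and 4.78% in siGl3 cells. Of its genes, 63.5% and 29.0% were occupied in siOrc6 cells, against 51.3% and 57.1% in siGl3 cells. By number it held 999 and 630 regions in siOrc6 cells, against 856 and 1014 in siGl3 cells. Chromosome 17, with 14.0 genes per Mb, held 6.42% and 5.19% in siOrc6 cells, against 7.39% and 6.34% in siGl3 cells. By number these were 1204 and 1736 regions, against 1316 and 1344, so there siOrc6 replicate 2 held the most. On chromosome 2, with 5.18 genes per Mb, the region share was 8.51% and 11.1% in siOrc6 cells, against 8.61% and 8.99% in siGl3 cells. siOrc6 replicate 1 lay just below the siGl3 values on chromosome 2 and above them on chromosome 19.

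**Figure D5:**
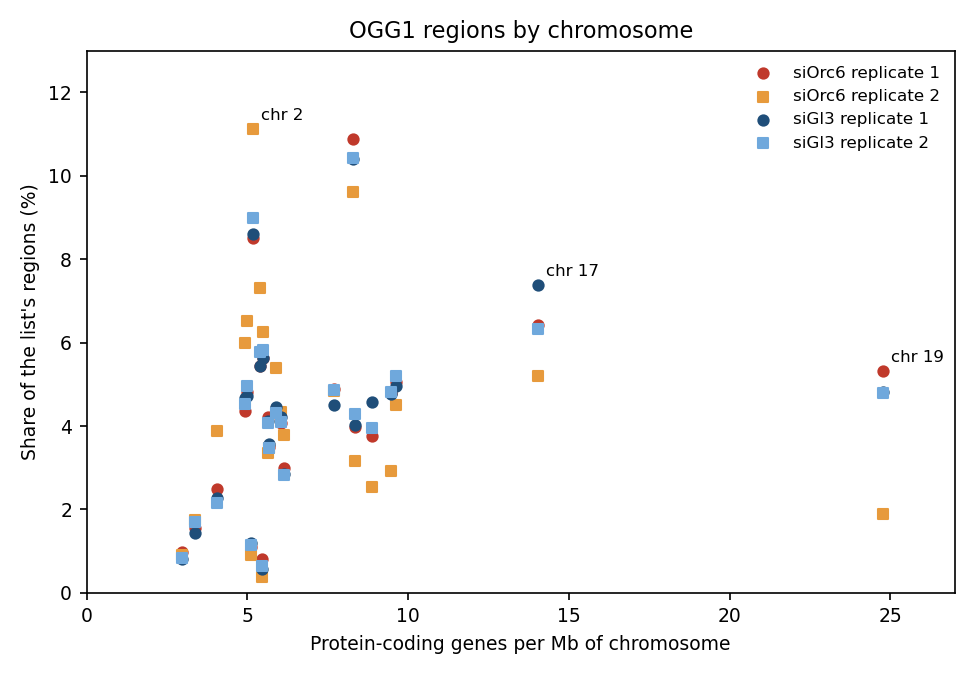
Share of each list's regions (%) on each of chromosomes 1 to 22 and X against protein-coding genes per Mb of chromosome, with circles for replicate 1 and squares for replicate 2. On chromosome 19 siOrc6 replicate 2 is at 1.88% and the other 3 lists are between 4.78% and 5.33%, while on chromosome 2 it is the highest at 11.1%.

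Occupancy at genes of small RNAs differed by class. Over all protein-coding genes it was 58.9% and 48.5% in siOrc6 cells, against 51.6% and 55.6% in siGl3 cells, and the groups overlapped. Of 429 transfer RNA genes, 36.1% and 37.8% were occupied in siOrc6 cells, against 26.3% and 28.2% in siGl3 cells, and the groups did not overlap. Small nuclear RNA genes did not overlap either, at 27.9% and 26% of 154 in siOrc6 cells, against 21.4% and 18.2% in siGl3 cells. Nor did pseudogenes, at 9.16% and 14.0% of 15212 in siOrc6 cells, against 6.72% and 9.10% in siGl3 cells. Small nucleolar RNA genes, at 16.8% and 25.8% of 1196 in siOrc6 cells, against 12.8% and 19.1% in siGl3 cells, did overlap. MicroRNA genes, at 30.2% and 23.2% of 1911 in siOrc6 cells, against 26.9% and 32.2% in siGl3 cells, overlapped too, with a lower mean in siOrc6 cells. Over 19970 protein-coding genes, those in both libraries of one siRNA and none of the other made up 1.52% for siOrc6 and 0.496% for siGl3. Such genes numbered 9 for siOrc6 and 0 for siGl3 among the 429 transfer RNAs. Among the 1911 microRNAs they numbered 11 for siOrc6 and 27 for siGl3. Many of these genes lie in clusters that share a region, and no p below 0.333 was possible with these libraries.

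The authors' deposited SMARCA1 windows gave a further readout that the choice of these lists did not use. They are short windows of fixed width named up or ns, and the sources used do not say what was compared to name them. Of 7045 windows named up in non-treated cells, 97.8% and 83.3% met an OGG1 region in siOrc6 cells, against 93.4% and 94.0% in siGl3 cells. Of 5317 windows named ns, 58.1% and 91.0% did in siOrc6 cells, against 53.4% and 60.3% in siGl3 cells. Of the ns windows 14.4% met a window at a gene end, against 71.4% of the up windows, and siOrc6 replicate 2 was the highest library on the ns windows and the lowest on the up windows.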

How the data were processed

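OGG1 CUT&RUN was analysed in 4 libraries of U2OS cells, grouped by the siRNA and treatment in the sample titles. Per the submitters' processing notes, the tools were SEACR 1.1, Bowtie2, DiffBind, SAMtools, DESeq2, deepTools and bedtools, and the build hg38, with no roles given. The authors deposited for each library a list of called regions with the total and maximum signal of each. How the authors scaled this signal, and against which control, is not stated, so it was used only to rank regions within a list, as a percentile. Longer or deeper lists occupy more genes, which is why lists were also cut to equal length and to equal covered bases. Regions on chromosomes 1 to 22 and X were kept, which left out 16 to 86 per list.

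Gene positions came from RefSeq (GRCh38.p14, 19970 protein-coding genes, 1 kb on each side of both ends, an overlap of at least 1 bp). All 394 list members were found, and 15811 genes had a promoter sequence. Exact permutation tests (two-sided) were run on library measures, and on genes Fisher's exact test, each with Benjamini-Hochberg adjustment. The labels have a batch field equal to the replicate number, so numbers pair the samples. Same-number deviations had r = 0.03 over 19970 genes, and the blocked test (smallest possible p = 0.5, exact permutation) changed no call. Genes were named by a rule: all members of 2 lists, list members and the 10 genes of highest percentile in each all-or-none pattern, and the top 10 shared by 4 lists or in siOrc6 replicate 2 alone. Promoters to print were picked by coverage in place of the rank first planned. The members, lists and rule were chosen with earlier results of these data known. Counting was tested on simulated data. The software was matplotlib 3.10.9, pandas 2.3.3, scipy 1.17.1 and numpy 2.4.6 under Python 3.11.15. The other 14 samples without a list were not analysed here. Some genes are not reported here.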

Additional observations from a re-analysis of the deposited data

How the results depend on the processing

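With groups of 2, no exact permutation test here can pass p = 0.05, so only direction and size can be compared between settings, and unknown depth limits both. Leaving out 1 library at a time gave differences (siOrc6 minus siGl3) from -0.051 to 0.78 in log2 region number, 0.02 to 0.58 in log2 covered bases, -904.5 to 333.5 bp in median width, -19.9 to 4.83 points in regions at gene ends and -5.07 to 5.34 points in genes occupied. It put 3.06% to 6.65% of genes and 17.8 to 170.0 Mb in siOrc6 lists alone, against 0.976% to 11.3% of genes and 20.6 to 64.2 Mb in siGl3 lists alone. Gene occupancy, 0.14 points as reported, was -0.17 points with windows of 500 bp and -4.93 points with equal region numbers. Genes of the siOrc6 and siGl3 patterns made up 0.891% and 0.751% (178 and 150) with equal region numbers and 0.275% and 1.21% (55 and 242) with equal covered bases. Both cuts left the list of siGl3 replicate 1 whole. By starts alone, added after seeing the data, genes of the 2 patterns numbered 274 and 92. Bases shared within minus between groups were -1.83 points by Jaccard index and 2.00 points by the share of the shorter list's regions. The replicate block gave p = 0.5 for region number and covered bases and p = 1 for the other measures (exact permutation) and moved no count of calls. Apart from equal lists, the cause was not tested. Of 30 genes named by pattern none reversed, but 20 changed their pattern with windows of 5 kb, 8 with equal covered bases, 3 with equal region numbers and 2 with windows of 500 bp. POLR2J, GPR84, SEBOX, MFSD2B, ITPRIPL1, PRAC1, ACR, CLP1, C2orf78 and PRSS16 no longer divided the groups at 5 kb, and TDG, NBN, POLB, POLE3 and POLD3 at equal covered bases.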
